A study of Mus musculus with 12 samples.

Results

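Cytosolic ribosomal protein genes were followed through 12 polyA+ RNA libraries of mouse embryonic stem cells (ESC) after RNA interference against *Srrm2*, a splicing-related nuclear speckle gene. A gene was taken as a member when its symbol named a protein of the large (Rpl) or small (Rps) cytosolic subunit, or was *Rpsa*, *Rplp0*, *Rplp1* or *Rplp2*, and when it was annotated as protein coding. S6 kinases and pseudogenes were left out. The rule used symbols and annotation and no measured value, but it was set with earlier results of these data known. This gave 83 of the 42450 genes in the table, of which 51 belong to the large and 32 to the small subunit. They lie on 19 chromosomes, with 14 on chromosome 7, 8 on chromosome 17 and 7 each on chromosomes 9 and 11. All 83 passed the filter on low counts that left 19410 genes for testing.

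The cells were E14tg2a.4, 1 male mouse line kept in medium with serum and LIF, the cytokine that keeps ESC self-renewing. Per the paper's methods, cells were moved to serum-free medium with LIF before samples were collected. They were transfected with 50 nM of siRNA duplexes to *Srrm2* (Srrm2-KD) or, as control, to Gl2 of firefly luciferase (Gl2-KD), a target that mouse cells lack. They were collected 24 h later, or were transfected again at 24 h and collected at 72 h, so the later time point and the second transfection cannot be told apart. Each of the 4 groups had 1 library in each of 3 experiments, every culture received siRNA, and untransfected cells were not analysed here. The knockdown was transient and partial, RNA came from the whole transfected population, and all values therefore describe 1 line as a mixture of cells.

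Libraries held 73933196 to 153343831 estimated counts. *Srrm2* stood at 56.7%, 31.02% and 44.5% of its Gl2-KD value at 24 h in experiments 1, 2 and 3, and at 47.9%, 37.9% and 49.1% at 72 h. Its own log2 fold change was -1.22 (SE 0.14, edgeR adjusted p = 0.066) at 24 h and -1.16 (SE 0.14, edgeR adjusted p = 0.099) at 72 h. The paper, whose edgeR fit took the RNA processing day as covariate, reports *Srrm2* as significantly lower at both times. Here edgeR called 0 of 19410 genes at an adjusted p under 0.05 in either knockdown comparison, *Srrm2* included. The 0 edgeR calls among members in those comparisons therefore do not set members apart from other genes. Libraries of the same experiment resembled each other, and the 4 libraries of experiment 1 stood apart from the other 8. In Gl2-KD, *Srrm2* reached 911 and 962 CPM (TMM-scaled counts relative to library size) in experiment 1 and 442 to 496 CPM in the others. All 6 ESC markers examined, from *Pou5f1* to *Esrrb*, were above 1 CPM, with a summed level of 3095 to 3899 CPM. Markers of primitive endoderm, mesoderm, fibroblasts and neural cells summed to at most 36.1 CPM, and those of trophoblast to 53.1 to 104.6 CPM. The trophoblast sum was mostly *Tfap2c*, at a mean of 70.1 CPM.

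Ribosomal proteins clothe the ribosomal RNAs of both subunits, and most are needed in equal numbers for every ribosome that is built. Their messages are short, abundant and long-lived, and many begin with a C followed by an uninterrupted pyrimidine stretch, the terminal oligopyrimidine (TOP) tract, through which mTOR and *Larp1* control their translation. A few members have a second gene copy with restricted expression, such as *Rpl10l* and *Rpl39l* in male germ cells and *Rpl3l* in muscle. Ribosomal protein genes have also left many processed pseudogenes in the mouse genome, so a short read can fit several genes equally well. PolyA+ RNA counts give the amount of message and do not measure translation or the number of ribosomes.

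Promoter sequence of 63 of the 83 genes was found in RefSeq (build GRCm38.p6), with 10 of the 63 having several annotated starts. The following windows run from 60 bases before to 19 bases after the annotated start, so base 61 is the start, and are written in the direction of transcription with the run of at least 7 pyrimidines that opens with C within 10 bases of the start in capitals. *Rps18*, *Rps27*, *Rpl4* and *Rpl13a* are shown because the comparisons below name them, and the *Rpl10*, *Rpl39* and *Rpl22l1* windows because these genes or their copies departed from the rest.
*Rps18*: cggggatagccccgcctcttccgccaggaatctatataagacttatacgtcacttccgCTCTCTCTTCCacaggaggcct
*Rps27*: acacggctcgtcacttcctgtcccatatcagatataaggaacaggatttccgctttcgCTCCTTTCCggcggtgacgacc
*Rpl13a*: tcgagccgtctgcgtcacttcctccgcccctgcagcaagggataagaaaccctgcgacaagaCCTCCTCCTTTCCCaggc
*Rpl4*: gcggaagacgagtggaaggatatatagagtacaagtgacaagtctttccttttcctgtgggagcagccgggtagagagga
*Rpl10*: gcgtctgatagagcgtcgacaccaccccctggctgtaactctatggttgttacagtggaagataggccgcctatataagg
*Rpl10l*: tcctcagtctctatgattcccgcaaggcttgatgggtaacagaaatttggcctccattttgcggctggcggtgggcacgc
*Rpl39*: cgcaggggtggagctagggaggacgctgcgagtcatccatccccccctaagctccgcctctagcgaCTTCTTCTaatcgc
*Rpl39l*: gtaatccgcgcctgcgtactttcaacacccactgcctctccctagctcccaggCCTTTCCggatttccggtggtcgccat
*Rpl22l1*: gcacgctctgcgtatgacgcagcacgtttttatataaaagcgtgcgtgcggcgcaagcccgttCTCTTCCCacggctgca
The windows lie at chr17:33955646-33955725 (minus strand, *Rps18*), chr3:90213629-90213708 (minus, *Rps27*), chr7:45128726-45128805 (minus, *Rpl13a*), chr9:64173327-64173406 (plus, *Rpl4*), chrX:74270756-74270835 (plus, *Rpl10*), chr12:66284382-66284461 (minus, *Rpl10l*), chrX:37085203-37085282 (minus, *Rpl39*), chr16:10170168-10170247 (plus, *Rpl39l*) and chr3:28805448-28805527 (plus, *Rpl22l1*). The run of *Rps18* is 11 bases long and that of *Rpl13a* 14 bases, whereas the *Rpl4*, *Rpl10* and *Rpl10l* windows hold no run that opens with C within 10 bases of the annotated start. A pyrimidine stretch of *Rpl4* lies further upstream and was not counted.

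A run of at least 7 pyrimidines that opened with C within 10 bases of an annotated start was present in 26 of the 63 genes (41.3%), against 12.9% of all 27025 genes with a promoter entry. In the 300-base windows, from 250 bases before to 50 after the start and on both strands, the ETS-type word CCGGAA occurred in 35 genes (55.6%, against 16.7% of all genes) and the Sp1-type word GGGCGG in 39 (61.9%, against 38.2%). The YY1-type word AAGATGGCG was found in 4 (6.35%, against 1.64%) and TATAAA in 7 (11.1%, against 15.7%). These matches describe letters only, and the run depends on where the annotation puts the start. The 26 genes with a run and the 37 without had like median log2 differences between times, at 0.29 and 0.28 in Gl2-KD and 0.32 in both sets in Srrm2-KD.

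The 83 genes together took 5.51% to 11.95% of the counts of a library. In Gl2-KD at 24 h the share was 5.51%, 8.32% and 9.83% in experiments 1, 2 and 3, and in Srrm2-KD at 24 h it was 5.95%, 8.84% and 9.64%. At 72 h the Gl2-KD libraries held 6.40%, 10.2% and 11.9% and the Srrm2-KD libraries 6.41%, 11.95% and 11.6%. The group means were 7.89% ± 2.19, 8.14% ± 1.94, 9.502% ± 2.82 and 9.98% ± 3.10 (SD, n = 3 each), so all 4 groups overlapped. Within every experiment the share was higher at 72 h than at 24 h, by a factor of 1.16, 1.23 and 1.21 for Gl2-KD and of 1.08, 1.35 and 1.20 for Srrm2-KD. The knockdown gave factors of 1.08, 1.06 and 0.981 at 24 h and of 1.00, 1.17 and 0.973 at 72 h, which lie on both sides of 1. The ratio of large to small subunit counts stayed between 1.49 and 1.56 in every library. The 77 mitochondrial ribosomal protein genes, which serve the separate ribosomes of mitochondria, took 0.387% to 0.587%. In bulk RNA, fewer cells that express a gene and less message per cell cannot be told apart. Wilson 95% intervals of the shares were at most 0.0073 percentage points to either side and cover counting error only.

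**Figure D1:**
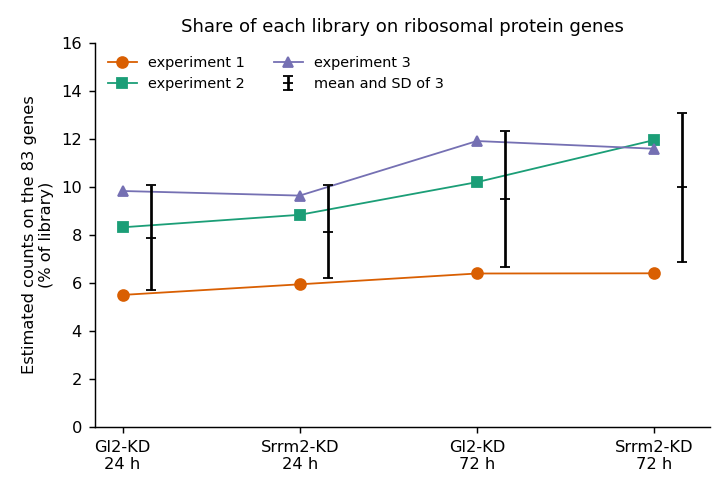
Percentage of library counts on the 83 ribosomal protein genes (vertical axis) in the 4 groups (horizontal axis). Points are libraries, lines join the libraries of 1 experiment, and black marks give the mean and SD of 3. The 4 libraries of experiment 1 lie between 5.51% and 6.41%, below the other 8, and each line is higher at 72 h than at 24 h.

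Measured per kilobase of transcript, the median member stood at 1209 CPM per kb (quartiles 398 and 1957), against a median of 2.41 over all genes tested. Of the 100 genes with the highest level per length, 43 were members, and of the top 500, 71. The highest were *Rplp1*, an acidic stalk protein, at 4687 ± 1660 CPM per kb (SD, n = 12 libraries, range 2418 to 7068), *Rpl23a*, which lies at the mouth of the peptide exit tunnel, at 3632, and *Rps18*, in the head of the small subunit, at 3612. Their ranges over the 12 libraries overlapped, but each gene was measured in the same libraries and the ranges include the difference between experiments. The overlap therefore does not decide the order at the top, which was not tested. Among the lowest were *Rpl3l* at 0.490 and *Rpl39l* at 15.8 CPM per kb. Transcripts were short, with a median of 886 nt (345 to 5179 nt) against 2596 nt over all genes tested, and a median of 5 exons. *Rpl10l* was the 1 member with a single exon.

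Levels per length differed widely between members, and pseudogene entries held a large part of the counts of some. A total of 42 of the 83 genes lay within 2-fold of the median level, and 10 lay more than 10-fold below it. These levels used the length of 1 main transcript per gene, and the spread depends partly on that choice. With the median length of a gene's protein-coding transcripts, the median level was 1542 CPM per kb. By that length 49 genes lay within 2-fold of it and 11 more than 10-fold below it. *Rps15a*, for example, was 205 CPM per kb by the first length (5179 nt) and 1660 by the second (638.5 nt). The table holds 248 pseudogene entries of which at least 50% of the 31-base words (31-mers, the unit that Kallisto matches) also occur in transcripts of 65 of the members. These entries took 1.64% to 3.496% of a library, or 22.1% to 23.3% of members and pseudogenes together. *Rps12* had 11.3 CPM on its own entry and 951 CPM with the pseudogene entries, an 83.9-fold difference that came mainly from *Rps12-ps3*. *Rpl5* was raised 37.0-fold, *Rps13* 33.5-fold and *Rpl12* 15.9-fold. *Rpl3* was raised 8.597-fold, mainly by *Rpl3-ps1* at 2997 CPM. In all, 22 genes were raised by more than 1.5-fold and 8 by more than 5-fold. With these counts added, the median level was 1628 CPM per kb, 62 of 83 genes lay within 2-fold of it and 7 more than 10-fold below it. Which locus the reads came from cannot be told from the counts, and the values below are those of the gene's own entry unless stated.

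**Figure D2:**
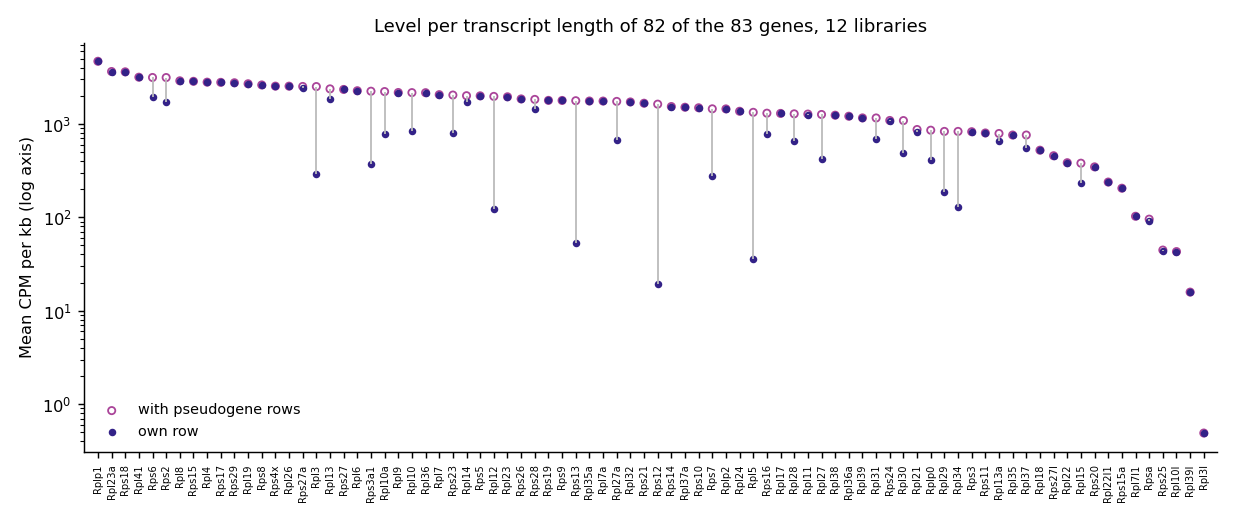
Mean level over the 12 libraries in CPM per kb of transcript (vertical log axis) for 82 of the 83 genes in rank order (horizontal axis). Filled points are the gene's own entry and open points the same with pseudogene entries that share 31-mers added, which lifts 22 genes by more than 1.5-fold.

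Most members moved together from library to library. The correlation of a gene's log2 CPM with the summed CPM of all other members, over 12 libraries that share experiments and scaling, had a median of 0.99, and 72 of 83 genes were above 0.9. The exceptions below 0.5 were *Rpl39l* (-0.30), *Rpl10l* (0.16) and *Rpl7l1* (0.47), all paralogues of other members. With group means and experiment means removed, the median was 0.89, with 38 genes above 0.9 and 11 below 0.5. Those 11 were not only paralogues and included *Rpsa* (0.17), *Rps2* (0.31) and *Rpl10* (0.37). What remained after group and experiment had an SD of 0.07 (*Rps9*) to 0.40 (*Rps12*) on the log2 scale, with a median of 0.13, and 75 genes were under 0.2. These are descriptions over libraries that share their source.

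The largest part of this joint movement was between experiments. In experiment 1, the median member was lower by 0.87 on the log2 scale than in experiments 2 and 3, a ratio of 0.546. For 74 of 83 genes, all 4 libraries of experiment 1 were below all 8 others, against 13.7% of all genes tested, and for 0 genes all 4 were above, against 16.8%. *Rplp1* ranged from 1207 to 1428 CPM in experiment 1 and from 2247 to 3527 CPM elsewhere. The differences were largest for *Rpl22l1* (-1.34), *Rpl13a* (-1.18) and *Rpl41* (-1.11). They were smallest for *Rpl39l* (0.04), *Rpl10l* (-0.22) and *Rpl7l1* (-0.34). Other short messages were also lower in experiment 1: 174 other protein-coding genes under 1200 nt and above 100 CPM had a median difference of -0.71, the 77 mitochondrial ribosomal protein genes had -0.61, and 972 genes of 3000 nt or more had 0.28. The part of transcript length, culture or library preparation in this difference was not tested. The comparisons that follow were therefore made within experiments.

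**Figure D3:**
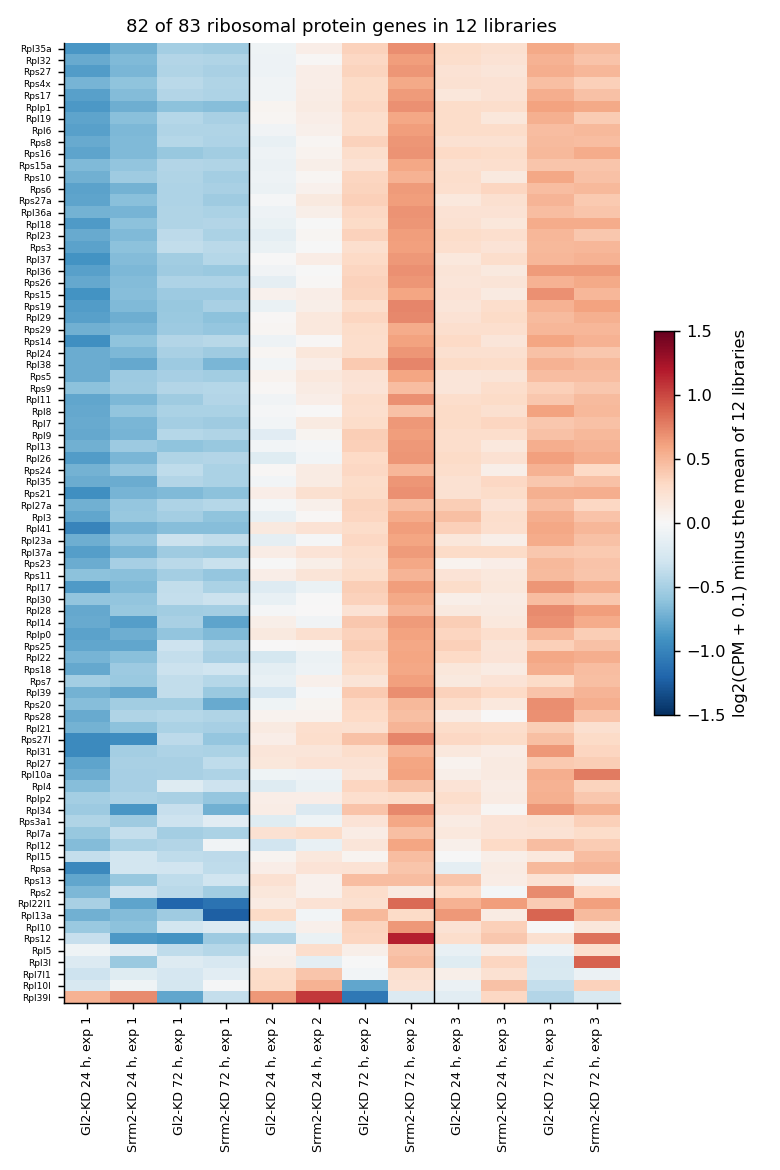
Log2(CPM + 0.1) of 82 of the 83 genes (rows) minus its mean over the 12 libraries, in colour, with libraries as columns ordered by experiment, time and siRNA. Rows are ordered by their correlation with the summed level of the other members. The 4 columns of experiment 1 are low in nearly every row, and the last rows, *Rpl7l1*, *Rpl10l* and *Rpl39l*, do not follow.

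Time in culture was compared in the control cells first. In Gl2-KD, the members were higher at 72 h than at 24 h as a group, with a median log2 fold change of 0.29 (1.22-fold) against 0.02 over all genes tested. The medians within experiments 1, 2 and 3 were 0.27, 0.31 and 0.26, and 77 of 83 fitted values were above 0. A total of 71 members were higher in 3 of 3 experiments, against 20.3% of all genes, and 2 were lower in 3 of 3, against 16.3%. At an unadjusted p under 0.05, 58 members were higher, against 9.59% of all genes, and 2 were lower, against 7.21%. After adjustment over 19410 genes, edgeR called 0 members, against 1.45% of all genes, with a smallest adjusted p of 0.052. DESeq2 called 15 members higher (4.41% of its genes) and 1 lower (3.75%), and limma-voom called 4 higher (1.24%) and 1 lower (1.25%).

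*Rps18* was 1138, 1756 and 2193 CPM in Gl2-KD at 24 h and 1553, 2379 and 2823 CPM at 72 h in experiments 1, 2 and 3. Each experiment was higher at 72 h although the groups overlapped, and the log2 fold change was 0.42 (SE 0.10, edgeR adjusted p = 0.064). *Rpl4*, which lines the upper exit tunnel, was 2676, 3642 and 4828 CPM at 24 h and 3643, 5240 and 5989 CPM at 72 h, with a log2 fold change of 0.42 (SE 0.10, edgeR adjusted p = 0.061). *Rpl17* went from 902, 1414 and 1956 CPM to 1253, 2091 and 2561 CPM, with a log2 fold change of 0.47 (SE 0.11, edgeR adjusted p = 0.063). These, with *Rpl23a* (0.41), are the 4 members that limma-voom called higher. The middle of the list was narrow, with quartiles of 0.22 and 0.35. *Rps27*, a zinc-finger protein of the small subunit, was 428, 723 and 888 CPM at 24 h and 560, 965 and 1118 CPM at 72 h, with a log2 fold change of 0.38 (SE 0.10). *Rpl37*, on the large subunit, was 237, 438 and 491 CPM at 24 h and 307, 539 and 621 CPM at 72 h, with 0.34 (SE 0.09). Both were higher in each experiment and neither passed the adjusted threshold with edgeR. The stalk proteins *Rplp0*, *Rplp1* and *Rplp2*, which recruit elongation factors, had values of 0.19, 0.28 and 0.15. *Rpl5* and *Rpl11*, which bind *Mdm2* when ribosome assembly is disturbed, had values of -0.09 and 0.23. With its pseudogene entries added, the value of *Rpl5* became 0.36.

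*Rpl39l* went the other way. It was 16.7, 18.3 and 10.4 CPM in Gl2-KD at 24 h and 6.73, 5.47 and 8.50 CPM at 72 h, so the 2 groups did not overlap. Its log2 fold change was -1.10 (SE 0.24, edgeR adjusted p = 0.052), and DESeq2, limma-voom, edgeR without the filter on low counts and edgeR with legacy=FALSE called it lower. In Srrm2-KD it was 19.1, 24.3 and 14.4 CPM at 24 h and 9.01, 10.1 and 9.88 CPM at 72 h, with a log2 fold change of -0.98 (SE 0.24, edgeR adjusted p = 0.10). Its partner *Rpl39* had a log2 fold change of 0.35 in Gl2-KD.

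In Srrm2-KD, the members were likewise higher at 72 h than at 24 h, with a median log2 fold change of 0.31 (1.24-fold) against 0.00 over all genes. The medians within experiments 1, 2 and 3 were 0.14, 0.54 and 0.24, a wider spread than in Gl2-KD. All 3 experiments were higher for 64 members, against 16.2% of all genes, and lower for 1 (*Rpl39l*), against 16.7%. At an unadjusted p under 0.05, 62 members were higher, against 7.72% of all genes, and 1 was lower, against 8.54%. edgeR called 0 members after adjustment, against 0.551% of all genes, and limma-voom called 0. DESeq2 called 21 higher (3.11%) and 1 lower (3.51%). *Rps18* was 1329, 1836 and 2122 CPM at 24 h and 1574, 2894 and 2674 CPM at 72 h, with a log2 fold change of 0.41 (SE 0.10, edgeR adjusted p = 0.091). *Rpl34* was 41.0, 64.6 and 76.8 CPM at 24 h and 45.3, 123.6 and 108.8 CPM at 72 h, with a log2 fold change of 0.54 (SE 0.14, edgeR adjusted p = 0.11). Experiments 2 and 3 made up most of that difference. Experiment 2 carried much of the median, which was 0.15 with it left out.

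Large and small subunit genes did not part: the large subunit had medians of 0.28 (Gl2-KD) and 0.32 (Srrm2-KD), the small subunit 0.31 and 0.30. Levels of marker genes differed between times as well. The summed level of the 6 ESC markers was 3832 to 3899 CPM in Gl2-KD at 24 h and 3383 to 3591 CPM at 72 h, and in Srrm2-KD it was 3635 to 3860 CPM and 3095 to 3323 CPM. *Pou5f1*, at a mean of 1541 CPM over all libraries, was the largest part of these ESC sums. Between times edgeR called 0 of the 6, against 1.45% of all genes in Gl2-KD and 0.551% in Srrm2-KD. In each siRNA group 3 of the 6 were lower in 3 of 3 experiments, against 16.3% and 16.7% of all genes. The summed level of the 4 trophoblast markers was 60.6 to 79.6 CPM in Gl2-KD at 24 h and 91.8 to 104.6 CPM at 72 h, whereas in Srrm2-KD it was 56.9 to 73.8 CPM and 53.1 to 86.2 CPM, so those times overlapped. These sums were mostly *Tfap2c*, at a mean of 70.1 CPM over all libraries, against 5.83 for *Krt7*, 0.26 for *Elf5* and 0.07 for *Cdx2*. In Gl2-KD between times, *Tfap2c* had a log2 fold change of 0.39 (SE 0.12, edgeR adjusted p = 0.12). Of the 4 markers, 1 (*Krt7*, an epithelial keratin) was called higher in both (log2 fold changes 1.83 and 1.77, edgeR adjusted p = 0.014 and 0.033), and 2 of 4 had fitted values below 0 in each. The part of the marker differences in the ribosomal protein values was not tested.

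**Figure D4:**
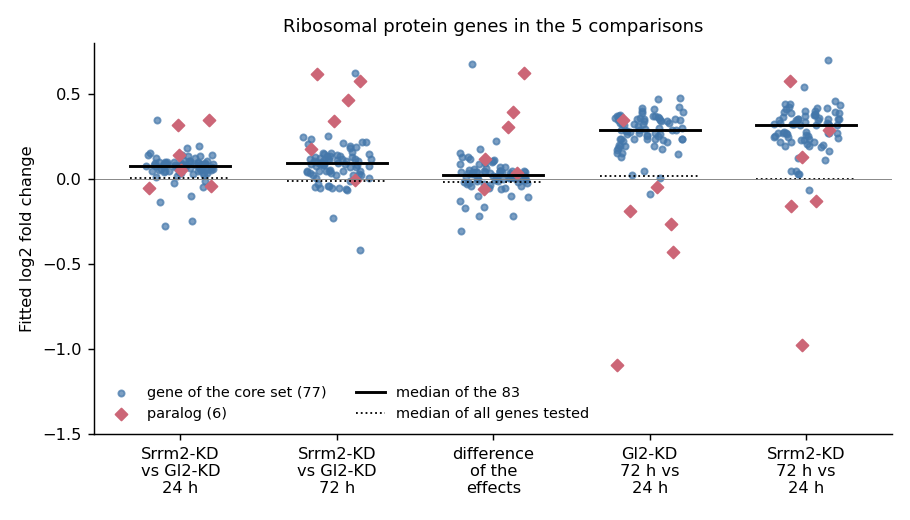
Fitted log2 fold change (vertical axis) of the 77 members without a paralogue label (points) and the 6 paralogues *Rpl3l*, *Rpl7l1*, *Rpl10l*, *Rpl22l1*, *Rpl39l* and *Rps27l* (diamonds) in the 5 comparisons (horizontal axis). Solid lines mark the median of the 83 genes and dotted lines the median of all genes tested. Points gather near 0.29 and 0.31 in the time comparisons and near 0.08 and 0.09 in the knockdown comparisons.

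The question of the knockdown was next asked at 24 h. Srrm2-KD and Gl2-KD differed little, with a median log2 fold change of 0.08 over the members against 0.01 over all genes. The medians within experiments 1, 2 and 3 were 0.13, 0.11 and -0.01. In the fit, 73 of 83 values were above 0. That count rested partly on the Gl2-KD library of experiment 2, without which 49 of 83 values were above 0 and the median was 0.01. Higher values in 3 of 3 experiments were seen for 31 members, against 17.3% of all genes, and lower values for 2, against 15.4%. edgeR called 0 members, against 0.0% of all genes, and DESeq2 and limma-voom also called 0. At an unadjusted p under 0.05, 1 member was higher, against 1.15% of all genes, and 0 were lower, against 1.47%. The 1 was *Rpsa*, which is also known as the laminin receptor precursor. It was 87.9, 183 and 157 CPM in Gl2-KD and 141, 197 and 187 CPM in Srrm2-KD, with overlapping groups and a log2 fold change of 0.35 (SE 0.13, edgeR adjusted p = 1.0). The lowest values were those of *Rpl34* (-0.27, SE 0.14) and *Rpl13a* (-0.25, SE 0.15).

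At 72 h the median log2 fold change of the members was 0.09, against -0.02 over all genes. It came from experiment 2: the medians within experiments 1, 2 and 3 were -0.02, 0.32 and -0.04. With that experiment's Srrm2-KD library left out the median was -0.05, and 25 of 83 values were above 0 in place of 70. Higher values in 3 of 3 experiments were seen for 18 members, against 18.8% of all genes, and lower values for 2, against 23.1%. At an unadjusted p under 0.05, 3 members were higher (*Rpl10l*, *Rps12* and *Rpl15*), against 5.01% of all genes, and 1 was lower (*Rpl13a*), against 7.86%. edgeR called 0 members, against 0.0% of all genes, and limma-voom called 0. DESeq2 called 1 higher, against 1.21% of its genes, and edgeR blocked on every pair of Srrm2-KD and Gl2-KD libraries called 1 higher, against 3.73% of all genes. The 1 was *Rpl10l* in both.

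*Rpl13a*, whose protein sits on the outer face of the large subunit, was the member with the most negative fitted value at 72 h. It was 438, 888 and 1169 CPM in Gl2-KD and 271, 774 and 881 CPM in Srrm2-KD, lower in each experiment while the groups overlapped. The log2 fold change was -0.42 (SE 0.15, unadjusted p = 0.018, edgeR adjusted p = 0.29), and the differences within experiments were -0.69, -0.20 and -0.41. *Rps2*, at the entry of the messenger channel, was 1371, 2169 and 2954 CPM in Gl2-KD and 1254, 1985 and 2215 CPM in Srrm2-KD, with a log2 fold change of -0.23 (SE 0.13). *Rpl15* was 340, 457 and 493 CPM in Gl2-KD and 339, 609 and 608 CPM in Srrm2-KD, slightly lower in experiment 1 and higher in the others (0.24, SE 0.11, edgeR adjusted p = 0.37). *Rps12* had 0.62 (SE 0.27, edgeR adjusted p = 0.36) on its own entry, and -0.00 with its pseudogene entries added.

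The change of the knockdown effect between 24 h and 72 h was not resolved for any member. The median difference was 0.02 over the members and -0.02 over all genes, with medians of -0.14, 0.20 and -0.02 within experiments 1, 2 and 3. edgeR called 0 members, against 0.0% of all genes, DESeq2 and limma-voom called 0, and 0 members had an unadjusted p under 0.05, against 1.64% of all genes in either direction. The most distant values were 0.67 (SE 0.38) for *Rps12* and -0.31 (SE 0.18) for *Rpsa*. With its pseudogene entries added, the *Rps12* value was -0.075.

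The second copies were set against their partners as a ratio within each library, which does not depend on scaling. *Rpl10l*, a copy of *Rpl10* without introns, was 7.501%, 8.12% and 4.89% of *Rpl10* in Gl2-KD at 24 h and 8.86%, 8.24% and 6.42% in Srrm2-KD in experiments 1, 2 and 3. At 72 h the Gl2-KD values were 6.10%, 2.79% and 4.76%, and the Srrm2-KD values 6.92%, 4.48% and 6.81%. The ratio was higher after the knockdown in 6 of 6 pairs of libraries, by 0.34 ± 0.24 on the log2 scale (SD, n = 6 pairs). *Rpl10l* itself was 35.6, 24.7 and 33.3 CPM in Gl2-KD and 42.1, 49.5 and 54.0 CPM in Srrm2-KD at 72 h, without overlap. Its log2 fold change was 0.62 (SE 0.18, unadjusted p = 0.0058, edgeR adjusted p = 0.21), and DESeq2 gave an adjusted p of 0.044. Without the Gl2-KD library of experiment 2 at 72 h, the edgeR value was 0.38. *Rpl10* shares reads with pseudogene entries, which raise it 2.55-fold.

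*Rpl39l* was 4.08%, 3.26% and 1.22% of *Rpl39* in Gl2-KD at 24 h and 4.86%, 3.67% and 1.74% in Srrm2-KD. At 72 h the Gl2-KD values were 1.30%, 0.623% and 0.945%, and the Srrm2-KD values 1.99%, 0.930% and 1.03%. This ratio was also higher in 6 of 6 pairs, by 0.38 ± 0.22 on the log2 scale. *Rpl36al*, which lies outside the selection by symbol, was higher against *Rpl36a* in 6 of 6 pairs, by 0.08 ± 0.05. For all 3, the two-sided exact permutation test over 64 sign flips gave p = 0.03125, the smallest it can give, and p = 0.083 after adjustment over 8 pairs of genes. None of the 3 passed the correction. The 6 pairs are 2 time points of the same 3 experiments and are not independent. With both times of an experiment averaged, all 3 ratios were higher in 3 of 3 experiments, and the exact sign-flip p was 0.25, the smallest that 3 experiments allow.

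*Rps27l*, a copy of *Rps27* that p53 induces, was lower against its partner in 5 of 6 pairs, by a mean log2 difference of -0.07 (exact p = 0.0625, adjusted 0.125). *Rpl22l1*, a partner of *Rpl22*, was 14.1% to 21.3% of *Rpl22* at 24 h and 8.89% to 19.0% at 72 h, with a mean knockdown difference of 0.10 ± 0.27 in both directions. *Rpl3l* was listed at 0.407 to 1.28 CPM in every library and took 0.0978% to 0.254% of *Rpl3*. *Rpl7l1* and *Rps4l*, the latter not one of the 83 members, had mean differences of 0.05 and 0.03. The exact adjusted p-values of these 4 were 0.45 to 0.72. By time, the ratio was lower at 72 h in 6 of 6 pairs for *Rpl39l* (-1.40), *Rpl22l1* (-0.46), *Rpl7l1* (-0.42), *Rps4l* (-0.30) and *Rpl36al* (-0.22). The log2 fold changes of these partners in Gl2-KD were 0.23 to 0.39.

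**Figure D5:**
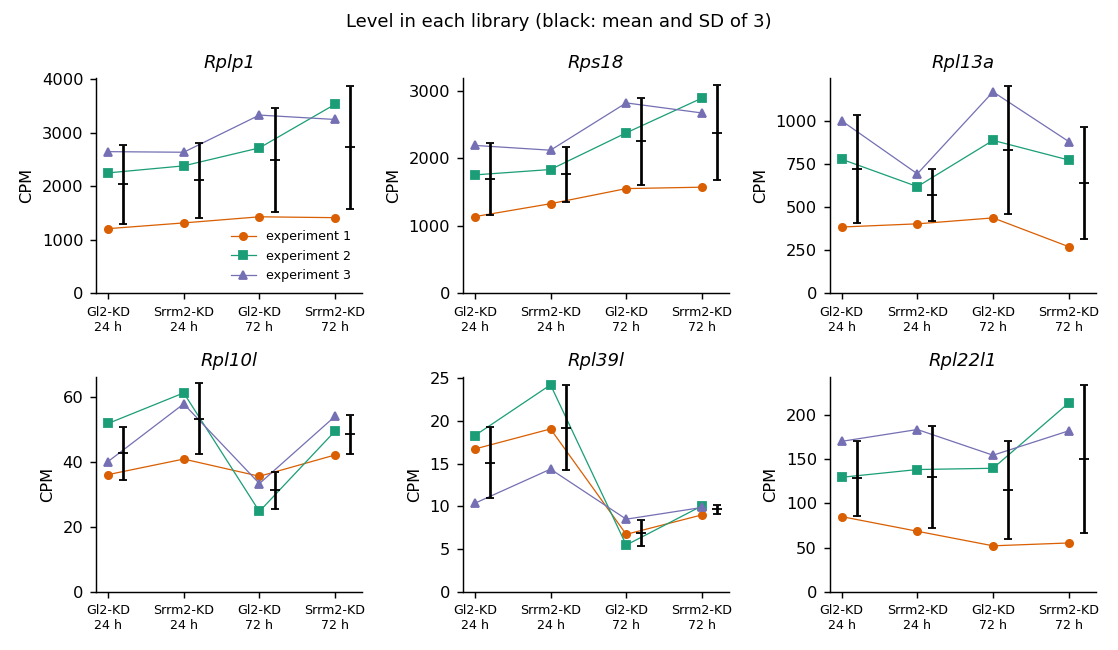
CPM per library (vertical axes) of *Rplp1*, *Rps18*, *Rpl13a*, *Rpl10l*, *Rpl39l* and *Rpl22l1* in the 4 groups, with points for the 3 experiments and black marks for the mean and SD. *Rplp1* and *Rps18* follow the experiment, whereas *Rpl10l* is above its Gl2-KD values in every Srrm2-KD library at 72 h and *Rpl39l* is lower at 72 h than at 24 h in both siRNA groups.

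The study named 11 of the members in its single-cell data: *Rpl29*, *Rpl35*, *Rpl36*, *Rpl37*, *Rpl37a*, *Rpl38*, *Rpl41*, *Rps21*, *Rps27*, *Rps28* and *Rps29*. Those data came from a constitutive heterozygous *Srrm2* line and its wild type. The paper reports ribosomal protein genes among those higher in the most stem-like heterozygous cluster than in the mostly wild-type cluster. Cells, depletion and measure thus differ from the bulk siRNA libraries used here. For the 11 genes, the median log2 fold change here was 0.08 and 0.12 for the knockdown at 24 h and 72 h, close to the 0.08 and 0.09 of all members, and 0 of 11 had an unadjusted p under 0.05. At 72 h against 24 h, 10 of 11 in Gl2-KD and 11 of 11 in Srrm2-KD were higher at an unadjusted p under 0.05, with medians of 0.27 and 0.31. The same held for 58 and 62 of all 83 members and for 9.59% and 7.72% of all genes. *Rps24* and *Rpl41*, named there for splicing, had knockdown values of 0.01 and 0.08 at 24 h and of -0.04 and 0.09 at 72 h. Gene counts do not show isoform use.

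Other lists of genes of ribosome production and translation had smaller medians than the members between times in Gl2-KD, given here side by side. The mitochondrial ribosomal protein genes had a median of -0.01 at 72 h against 24 h in Gl2-KD, and 4 of 77 were higher and 0 lower at an unadjusted p under 0.05. The shares of all genes were 9.59% higher and 7.21% lower, for this list and the next ones. Of 35 ribosome biogenesis genes, such as the nucleolar *Fbl* and *Ncl*, 0 were higher and 1 (*Rrs1*, -0.20) was lower, with a median of -0.09. Of 18 elongation factors and other messages with a TOP tract, 3 were higher, among them *Eef2* (0.33) and *Eef1a1* (0.29), and 0 lower, with a median of 0.14. The 14 eIF3 subunits, which help the small subunit to load, had a median of 0.04. *Rack1*, a scaffold on the small subunit, had 0.31 (SE 0.09), and *Fau*, which encodes a ribosomal protein fused to a relative of ubiquitin, had 0.24 (SE 0.13). The 4 ribosomal genes outside the selection, *Rack1* and *Fau* among them, had a median of 0.24 in Gl2-KD. In Srrm2-KD their median was 0.33, against 0.31 for the members.

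Of 21 RNA polymerase I and regulatory genes, 2 were called between times in Gl2-KD, against 1.45% of all genes. *Myc*, an activator of ribosome production, fell by 1.73 on the log2 scale (SE 0.25, edgeR adjusted p = 0.014), and *Mdm2*, the p53 ligase that *Rpl5* and *Rpl11* bind, rose by 0.60 (SE 0.13, edgeR adjusted p = 0.049). In Srrm2-KD the value of *Myc* between times was -1.18 (SE 0.25, edgeR adjusted p = 0.065). In the knockdown comparison at 72 h, *Nap1l1* (-0.49, SE 0.11) and *Pabpc1* (-0.29, SE 0.08) of the TOP list were lower at an unadjusted p under 0.05, with edgeR adjusted p-values of 0.14 and 0.20. *Myc* (0.56, SE 0.24, edgeR adjusted p = 0.37) was higher in 3 of 3 experiments.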

How the data were processed

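PolyA+ RNA of E14tg2a.4 cells was sequenced by the authors as stranded 100-bp paired-end libraries. The authors deposited estimated counts per gene, made with Kallisto 0.46.1 against GENCODE M24 transcripts and not normalised for library size. Summing of transcripts to genes is not described in what was read. All 12 columns were used, and 0 columns of values were left unused. Symbols, lengths and biotypes came from GENCODE M21 (GRCm38), which matched 42156 of 42450 identifiers. The other 294 took 0.175% of all counts and stayed in library sizes and tests.

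Counts were rounded and analysed with edgeR 4.0.16 in R 4.3.3: filterByExpr (minimum count 10, minimum total 15), TMM factors, and a quasi-likelihood fit (glmQLFit, legacy=TRUE) with a term per group and a block per experiment, tested over 19410 genes with Benjamini-Hochberg adjustment and called at an adjusted p under 0.05. The authors used the RNA processing day as covariate. The labels do not give the day, so the experiment stood in its place, because libraries of 1 experiment number come from 1 experiment per the labels. With group means removed, the 18 pairs of libraries of the same number had correlations across genes of 0.281 to 0.747. The 36 pairs that differed in both number and group had -0.628 to 0.231, and pairs within a group were left out. Removing group means ties these ranges to each other, so the second adds no separate evidence. With 3 experiments per group and a block per experiment, p-values rest on the spread left after group and experiment are removed. That spread had 6 residual degrees of freedom over the 4 groups together and was moderated across genes. Differences within an experiment used log2(CPM + 0.1). Levels were CPM per kb of the main transcript. Paralogue ratios were compared by exact sign flips over 6 pairs (scipy 1.17.1). The scripts were tested on simulated counts with larger changes than the medians of the members. Detection of changes as small as those medians was not tested.

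The members, the gene lists and the tests were chosen with earlier results of these data known. Genes named are the stalk genes and *Rpsa*, paralogue pairs, *Rpl5* and *Rpl11*, members the study names, in each comparison the 3 members of smallest p in each direction, the 3 highest and lowest levels, and the 3 with the largest and smallest difference between experiments and the largest residual SD; of other lists, the 2 genes of smallest p. *Rps13*, *Rpl12*, *Rps9* and any further gene named alone were picked with their values in view. Alternatives were DESeq2 1.42.0, limma-voom 3.58.1, other scalings, no filter, legacy=FALSE, other blocks, pseudogene entries added to members, and leaving out each library and experiment. Pseudogenes with no entry in the table were not analysed here, and 1 member and 1 other gene are not reported singly.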

Additional observations from a re-analysis of the deposited data

How the results depend on the processing

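Of the 83 genes, 0 were called in each comparison with the settings of the report. For Srrm2-KD against Gl2-KD at 72 h, DESeq2 and a replicate block for each experiment and time point each called 1 (*Rpl10l*). For 72 h against 24 h in Gl2-KD, DESeq2 called 16, limma-voom 5, legacy=FALSE 5, no filter 2 and library totals only 1. In Srrm2-KD, DESeq2 called 22. Leaving out libraries or experiments gave 0 to 10 calls in Gl2-KD and 0 to 1 in Srrm2-KD. The 10 arose with experiment 2 of Srrm2-KD at 72 h left out, and 1 each without experiment 3 as a whole, in Gl2-KD at 72 h or in Srrm2-KD at 24 h. In Srrm2-KD, 1 arose without experiment 1 and 1 without experiment 3. The causes were not tested. Without the replicate block, edgeR called 0 genes in any comparison, and the medians of the members were 0.29 and 0.34 between times. The knockdown comparison at 24 h and the difference of the knockdown effects kept 0 calls in all 26 alternatives.

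The median in Gl2-KD between times was 0.25 with library totals only and 0.23 to 0.32 with libraries or experiments left out. In Srrm2-KD it was 0.15 to 0.39. For the knockdown, the left-out fits gave medians of 0.01 to 0.13 at 24 h and -0.05 to 0.16 at 72 h, so the sign at 72 h depends on 1 library, and -0.11 to 0.10 for the difference. Leaving out an experiment kept the direction of the *Rpl10l* (0.28 to 0.40) and *Rpl39l* (0.35 to 0.40) ratios and changed that of *Rpl3l* (-0.19 to 0.51) and *Rps4l* (-0.03 to 0.12), with too few pairs left for a test. Averaging both time points of each experiment, an alternative chosen after seeing the data, left the mean ratios as they were and 0 of 8 past the correction. Libraries held 73933196 counts or more, and what depth limits was not tested.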

Other observations

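Outside the selection by symbol, *Rps12-ps3* and *Rpl10-ps3* are annotated as protein coding although their names mark them as pseudogenes. *Rps12-ps3* had a mean of 939 CPM, against 11.3 CPM on *Rps12*, and *Gm15500*, a transcribed processed pseudogene whose 31-mers all occur in *Rpl5*, had 2647 CPM against 73.6 CPM on *Rpl5*. Adding pseudogene entries left the median of the members at 0.29 in Gl2-KD and 0.32 in Srrm2-KD between times.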
